A study of Mus musculus with 16 samples.

Results

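The genes described here are 7 genes of the aryl hydrocarbon receptor (AHR) pathway, namely Ahr, Arnt, Ahrr, Cyp1a1, Cyp1b1, Tiparp and Nqo1, which were chosen by name from the 54146 genes of the tables and not by their values. They were measured by RNA-seq of whole pancreatic islets in 91 libraries from 8 inbred founder strains of diversity outbred mice. The strains were 129S1_SvImJ (129, 10 libraries), A_J (AJ, 14), C57BL/6J (B6, 18), CAST_EiJ (CAST, 14), NOD_ShiLtJ (NOD, 10), NZO_HlLtJ (NZO, 4), PWK_PhJ (PWK, 5) and WSB_EiJ (WSB, 16). All mice were 26 weeks old and had been on a high-fat diet, so that no library comes from a mouse on another diet, and no treatment with an AHR ligand is named in the labels. Of the libraries, 45 were labelled female and 46 male, with 3 females and 1 male in NZO and 1 female and 4 males in PWK.

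The AHR is a transcription factor that waits in the cytoplasm with HSP90 and other chaperones and moves to the nucleus when it binds a ligand, such as dioxin, a dietary indole or a product of tryptophan breakdown. There it pairs with ARNT and binds xenobiotic response elements near its target genes, of which Cyp1a1 and Cyp1b1 are the best known, while AHRR and TIPARP are made in response and restrain the receptor. Inbred mouse strains are known to carry Ahr alleles whose receptors differ in how tightly they bind ligand, and these alleles cannot be read from expression values. The question put to the data was how the levels of the receptor, its partner, its repressors and its targets vary between islets of the 8 strains and of both sexes, and between libraries of 1 strain.

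The libraries held between 16928552 and 35196145 expected counts, with a median of 27485367, so that 3 counts correspond to between 0.0852 and 0.177 CPM (counts scaled to the library total). This floor covers counting error only. Summed TPM (transcript abundance that RSEM scales by length and to the same sum in each library) of 8 beta cell markers, insulin genes included, ranged from 165905 to 570552 per library, so beta cell transcripts were abundant in each library. Markers of exocrine acinar cells ranged from 1453 to 261767 TPM, so the share of exocrine RNA differed widely between libraries, and they exceeded the beta cell markers in 5 of the 91, 2 of them in NOD and 1 each in B6, CAST and PWK. Xist and Y-linked counts went against the labelled sex in 12 of the 91 libraries, 6 of them in 129, 4 in WSB and 2 in NOD, and the tests of the members for sex below are given with and without these libraries, whereas values by sex within a strain include them. Whether each library came from a separate mouse is not given in the sources used here, so p-values measure the spread between these libraries. In whole islets, fewer cells of a type and less RNA per cell cannot be told apart.

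By position in GRCm38, Ahr (ENSMUSG00000019256.17) lies at chr12:35497974-35535038 on the minus strand. Arnt (ENSMUSG00000015522.18) lies at chr3:95434388-95497240 on the plus strand, and Ahrr (ENSMUSG00000021575.16) at chr13:74211118-74292331 on the minus strand. Cyp1a1 (ENSMUSG00000032315.6) lies at chr9:57687928-57703824 on the plus strand, and Cyp1b1 (ENSMUSG00000024087.3) at chr17:79701537-79715061 on the minus strand. Tiparp (ENSMUSG00000034640.9) lies at chr3:65528410-65555518 on the plus strand, and Nqo1 (ENSMUSG00000003849.8) at chr8:107388225-107403206 on the minus strand. All 7 are protein-coding. Ahr is overlapped on the other strand by the lincRNA RP24-111I3.3 (mean 0.0219 TPM), Arnt on its own strand by the pseudogene RP23-422N18.1 (mean 0.564 TPM), and Tiparp on the other strand by the pseudogene RP23-389J8.4 (mean 1.42 TPM). Reads may have been divided between these overlapping genes, whose levels were below those of the members they overlap.

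Promoters of 4 members that the AHR is known to act on are shown, although the activity of the AHR was not measured. Each is the RefSeq window of 250 bases before to 50 bases after the gene's start on GRCm38.p6, written from 5′ to 3′ on the gene's own strand. The start of the Cyp1a1 window lies 9685 bases inside the gene as placed above, whose model begins farther upstream, that of Tiparp 37 bases inside, and those of Ahrr and Cyp1b1 at the ends given. Capitals mark the core of the xenobiotic response element, GCGTG, on either strand, so that a core on the other strand reads CACGC.
Ahrr, chr13:74292282-74292581, minus strand: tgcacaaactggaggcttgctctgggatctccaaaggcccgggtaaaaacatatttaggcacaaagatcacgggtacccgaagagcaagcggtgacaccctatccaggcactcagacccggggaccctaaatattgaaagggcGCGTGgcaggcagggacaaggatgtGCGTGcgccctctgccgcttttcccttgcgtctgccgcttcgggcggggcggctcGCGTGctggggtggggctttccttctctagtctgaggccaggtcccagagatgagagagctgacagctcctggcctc
Cyp1a1, chr9:57697363-57697662, plus strand: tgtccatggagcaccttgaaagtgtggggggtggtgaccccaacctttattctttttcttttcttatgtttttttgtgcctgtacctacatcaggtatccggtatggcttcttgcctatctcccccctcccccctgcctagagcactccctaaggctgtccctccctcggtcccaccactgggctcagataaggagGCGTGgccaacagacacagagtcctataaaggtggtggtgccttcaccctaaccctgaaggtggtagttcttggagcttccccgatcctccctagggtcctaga
Cyp1b1, chr17:79715012-79715311, minus strand: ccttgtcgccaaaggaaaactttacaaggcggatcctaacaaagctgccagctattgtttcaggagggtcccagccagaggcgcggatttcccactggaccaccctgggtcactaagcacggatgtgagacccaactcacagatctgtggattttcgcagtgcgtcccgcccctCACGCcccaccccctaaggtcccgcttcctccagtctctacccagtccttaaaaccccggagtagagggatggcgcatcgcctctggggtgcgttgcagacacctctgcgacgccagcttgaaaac
Tiparp, chr3:65528197-65528496, plus strand: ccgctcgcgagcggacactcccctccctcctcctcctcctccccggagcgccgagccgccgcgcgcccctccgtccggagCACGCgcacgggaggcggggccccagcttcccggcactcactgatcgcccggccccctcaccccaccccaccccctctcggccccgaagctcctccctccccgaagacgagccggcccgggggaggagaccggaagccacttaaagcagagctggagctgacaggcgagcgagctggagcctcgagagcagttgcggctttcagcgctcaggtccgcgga

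The Ahrr window held 3 cores, all on its own strand, at -107, -82 and -27 from the start. Cyp1a1 held 1 core on its own strand at -54, Cyp1b1 held 1 on the other strand at -76, and Tiparp held 1 on the other strand at -170. The table of promoters matched 6 of the 7 members. The Arnt window (chr3:95434140-95434439) held 1 core, and the Nqo1 window (chr8:107403156-107403455) held none. A core of these letters occurred in 32.4% of 32851 RefSeq promoter windows of the same length, and 3 or more in 3.91%. The core of the antioxidant response element, TGACNNNGC on either strand, occurred in 12.4% of the windows, in 2 places in the Arnt window and in none of the other 5 windows of members. These matches describe letters in a window of 300 bases and say nothing of binding.

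Across the 91 libraries, Tiparp (mean 18.5 TPM), Arnt (14.97 TPM) and Nqo1 (10.9 TPM) were the most abundant of the 7, followed by Ahr (2.43 TPM), Cyp1b1 (0.748 TPM), Cyp1a1 (0.407 TPM) and Ahrr (0.120 TPM). The mean of Cyp1a1 rests on 1 WSB library, described below, and was 0.151 TPM over the other 90. Among 21710 protein-coding genes, the mean TPM of Tiparp was above that of 81.3%, that of Ahr above 49.2% and that of Ahrr above 28.9%. Cyp1a1 and Ahrr were near the limit of detection in most libraries, since 60 and 52 of the 91 libraries had 3 or fewer expected counts for them, and 24 and 11 had none. The highest mean TPM was in NZO for Ahr, in 129 for Arnt, in NOD for Ahrr and Cyp1b1, in WSB for Cyp1a1 and Nqo1, and in AJ for Tiparp. On normalized counts (counts per effective library size), the highest strain was the same for 6 of the 7 genes, the exception being Arnt, for which it was NZO.

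**Figure D1:**
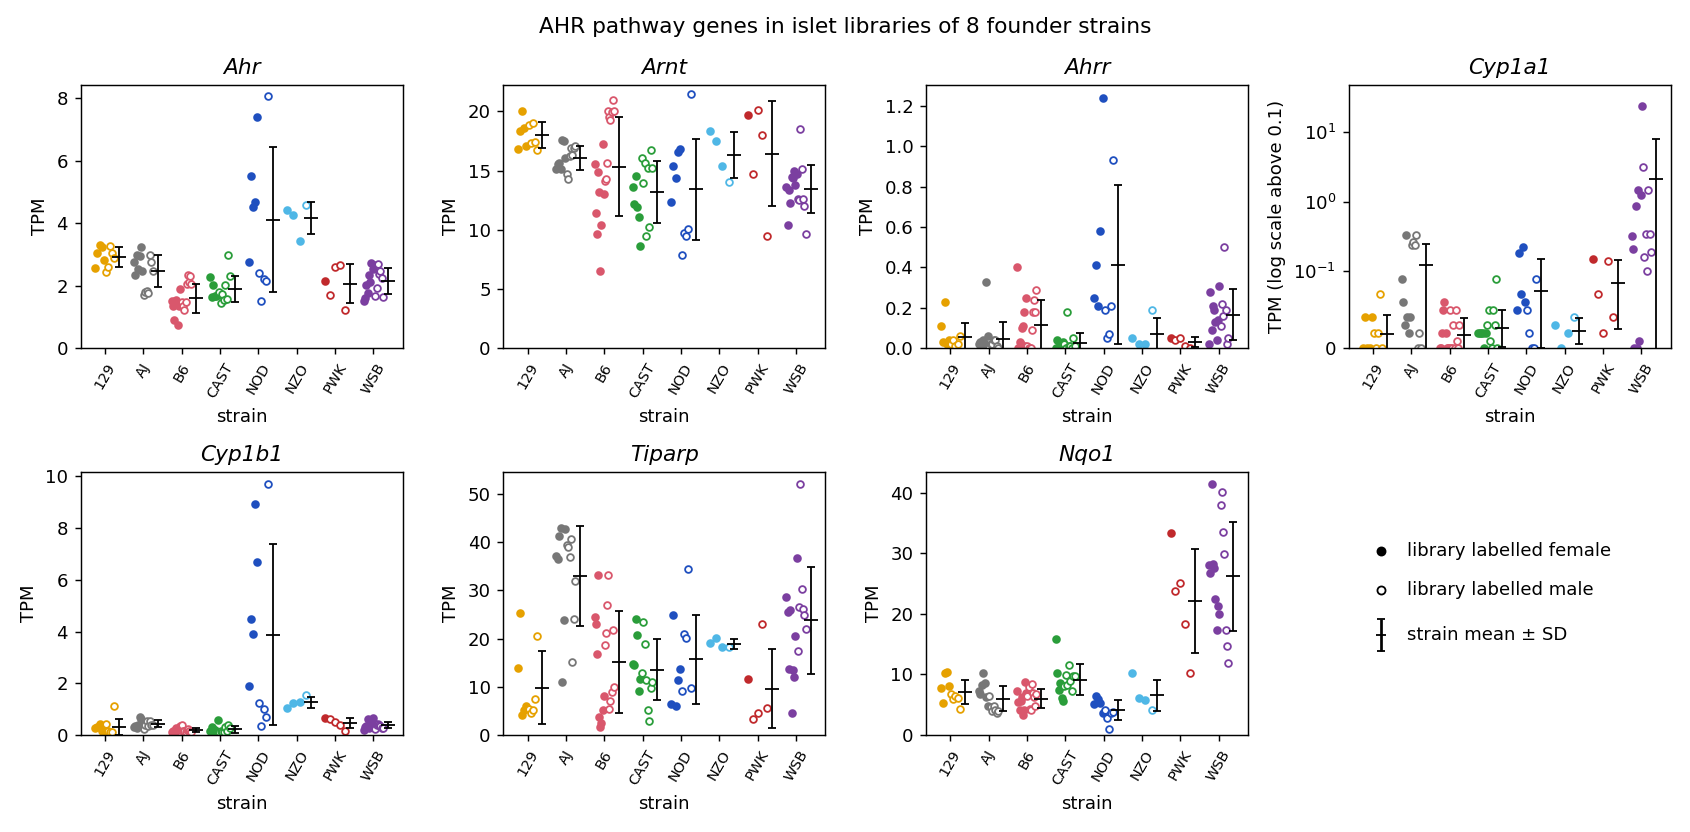
TPM of the 7 genes (vertical axes) in each of the 91 islet libraries by strain (horizontal axes), with filled points for libraries labelled female, open points for male, and a bar at the strain mean ± SD. The Cyp1a1 axis is logarithmic above 0.1 TPM. The NOD libraries spread over most of the range of Ahr, Ahrr and Cyp1b1, and 1 WSB library stands at 23.39 TPM of Cyp1a1.

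The 8 strains were compared with edgeR's quasi-likelihood test on rounded expected counts, with strain and sex in the model and Benjamini-Hochberg adjustment over all genes tested. Of the 7 members, 6 passed the filter on low counts and were tested among 15204 genes. Cyp1a1 was non-zero in 73.6% of the libraries and did not pass, and was tested in an unfiltered fit of the 19718 genes with any count. All 7 members passed the strain test (adjusted p under 0.05), which is no more than the background, since 97.4% of all genes did so in the filtered fit and 88.4% in the unfiltered fit. The sizes of the differences were unlike between the members. On the log2 scale of the fit, the range from the lowest to the highest strain was 0.33 for Arnt and 1.28 for Ahr, against 1.89 for Tiparp, 2.75 for Nqo1, 3.89 for Cyp1b1, 4.17 for Ahrr and 6.78 for Cyp1a1. The range of Arnt was wider than that of 10.1% of the genes tested and that of Ahr wider than 63.4%, whereas those of the other 5 were wider than 75.4% to 97.6%. The median range was 2.32 over the 6 members in the filtered fit and 0.87 over all genes in it. The genes set beside the members were not matched to them by level, and Cyp1a1 was ranked in the unfiltered fit. The ranges of Ahrr and Cyp1a1 rest on few counts, with 52 and 60 of the 91 libraries at or under 3.

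Pairs of strains were then contrasted in the same fits, at an adjusted p under 0.05 over the genes of each contrast. Of the 168 tests of the 6 members over the 28 pairs, 99 were called (58.9%), beside 50.3% of all tests of genes and pairs. For Cyp1a1, 10 of the 28 pairs were called (35.7%), beside 42.5% of all tests in the unfiltered fit. Ahrr and Cyp1b1 were each higher in NOD than in each of the other 7 strains, as 25.8% of all genes were in some strain, and Cyp1a1 was higher in WSB than in each of the other 7 (22.4% in the unfiltered fit). None of the 6 members was lower in 1 strain than in each of the other 7, which was so for 21.7% of genes in the filtered fit.

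Ahr, which encodes the receptor itself, was highest in NZO and NOD and lowest in B6. The 4 NZO libraries had 3.43, 4.27, 4.42 and 4.57 TPM, with a mean of 4.17 TPM ± 0.510 (SD, n = 4). In NOD the values ran from 1.5 through a median of 3.64 to 8.06 TPM (4.12 ± 2.31, SD, n = 10), and in B6 from 0.74 through 1.495 to 2.33 TPM (1.59 ± 0.450, SD, n = 18). All 4 NZO libraries were above every library of 129, AJ, B6, CAST, PWK and WSB, whereas the NOD libraries lay on both sides of the NZO values and overlapped those of every other strain. The mean was 2.92 TPM in 129, 2.47 in AJ, 2.15 in WSB, 2.07 in PWK and 1.89 in CAST, and no 2 neighbours in the order of these means differed by more than the larger of their SDs. In normalized counts NOD and 129 did so, with a difference of 150 between their means against an SD of 133.

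By the fit, Ahr was 1.28 ± 0.13 (SE) higher on the log2 scale in NZO than in B6, or 2.42-fold (adjusted p = 6.47e-14, edgeR's quasi-likelihood test). NZO and NOD were each higher than each of the other 6 strains. The difference between NOD and NZO was -0.11 ± 0.15 (adjusted p = 0.57), which is within the spread between libraries. B6 was lower than every other strain except PWK, from which it differed by -0.10 ± 0.13 (adjusted p = 0.557). With the summed macrophage, T and B cell markers as a covariate, NZO was higher in Ahr than each of the other 7 strains, NOD among them by 0.44 ± 0.16 (adjusted p = 0.0243), and NOD was then higher only than AJ, B6 and PWK. When TPM was rescaled to the genes other than acinar markers, NOD and not NZO had the highest mean.

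Arnt, the obligate partner of the AHR and of the hypoxia-inducible factors, varied least. The strain medians ran from 13.3 TPM in NOD to 18.04 TPM in PWK, and the strain means from 13.2 TPM ± 2.596 (SD, n = 14) in CAST to 18.01 TPM ± 1.10 (SD, n = 10) in 129. The 129 libraries lay between 16.76 and 19.99 TPM, and the B6 libraries covered 6.5 to 20.94 TPM, so these strains and most others overlapped. In normalized counts the spread within strains was narrower, with means from 1215 ± 86.4 (SD, n = 10) in NOD to 1493 ± 92.2 (SD, n = 4) in NZO. The largest contrast was NZO against NOD, at 0.33 ± 0.07 (SE) on the log2 scale (adjusted p = 2.48e-05, edgeR). In all, 17 of the 28 pairs were called for Arnt, at differences of 0.33 or less. When the libraries of each sample were summed, 3 of 28 were called, NOD against 129, B6 and NZO, and the strain effect of Arnt was not (adjusted p = 0.0554).

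Ahrr, which encodes the AHR repressor, a competitor of the receptor for ARNT and for its binding sites, was highest in NOD. The 10 NOD libraries ran from 0.05 through a median of 0.23 to 1.24 TPM (0.414 ± 0.393, SD), or from 3 to 97.34 expected counts. WSB followed with 0.02, 0.15 and 0.5 TPM as its lowest, median and highest values (0.166 ± 0.125, SD, n = 16). The other 6 strain means were between 0.0279 TPM in CAST and 0.116 TPM in B6, and the NOD libraries overlapped those of other strains, since 6 of them had fewer than 20 expected counts.

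The TPM of Ahrr also depended on the isoforms that RSEM assigned, because its mean transcript length ran from 335 to 5099 bases between libraries. For this reason the highest B6 library had 0.4 TPM from 5.62 expected counts, whereas the highest 129 library by counts had 0.11 TPM from 10.88. The counts, which do not depend on this length, gave the same strain at the top. Ahrr was higher in NOD than in WSB by 2.09 ± 0.35 (SE) on the log2 scale (adjusted p = 1.49e-07, edgeR) and than in CAST by 4.17 ± 0.44 (adjusted p = 5.83e-14). WSB was higher than AJ, B6, CAST and PWK, by 1.40 to 2.08, and was not called against 129 (0.68 ± 0.42, adjusted p = 0.164) or NZO. The other pairs called were 129 and NZO, each higher than CAST. These contrasts rest on few counts, since the median library had 2.81 expected counts in 129, 2.125 in AJ, 1.455 in B6, 1.025 in CAST, 3 in NZO, 2 in PWK and 6.05 in WSB.

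Cyp1a1, the cytochrome P450 enzyme whose induction is the classical sign of an active AHR, was highest in WSB and near the floor in most other libraries. The 16 WSB libraries ran from 0 through a median of 0.33 to 23.39 TPM. The highest, a library labelled female with the number 48, held 1553 expected counts, and the next had 3.15 TPM from 222 counts. Of the others, 12 lay between 0.01 and 1.45 TPM and 2 had no count, so the libraries of this strain differed among themselves more than most strains differed from each other. AJ had a mean of 0.121 TPM ± 0.127 (SD, n = 14), with 0, 0.05 and 0.33 TPM as its lowest, median and highest values, and the other 6 strain means were 0.084 TPM or less, with no library above 0.22 TPM.

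Cyp1a1 was higher in WSB than in AJ by 3.99 ± 0.65 (SE) on the log2 scale (adjusted p = 2.37e-07, edgeR, fit without the filter) and than in 129 by 6.78 ± 0.92 (adjusted p = 1.90e-09). Without library 48 these differences were 2.60 ± 0.53 (adjusted p = 3.47e-05) and 5.33 ± 0.77 (adjusted p = 1.30e-08), and WSB was still higher than each of the other 7 strains. AJ was higher than 129, B6 and CAST, by 1.99 to 2.78. Counts in the other 6 strains were close to the floor, with a median library at between 0.5 and 4 expected counts, and differences among them were not detectable at this depth. Library 48 was not apart in the other targets. It had 36.8 TPM of Tiparp, 20.05 TPM of Nqo1, 0.48 TPM of Cyp1b1, 0.31 TPM of Ahrr and 2.65 TPM of Ahr, each within the range of the other WSB libraries.

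Cyp1b1, a second P450 target of the AHR that is expressed mostly outside the liver, had its highest levels in NOD and next in NZO. In NOD the libraries ran from 0.33 through a median of 2.905 to 9.7 TPM (3.89 ± 3.49, SD, n = 10), from 30 to 1150 expected counts. The 4 NZO libraries had 1.03, 1.22, 1.27 and 1.53 TPM (1.26 ± 0.206, SD). They lay above every library of AJ, B6, CAST, PWK and WSB, and 3 of them above every 129 library, whereas the NOD values extended on both sides of the NZO values and down into the range of the other strains. The remaining means were between 0.189 TPM in B6 and 0.462 TPM in PWK. In the order of the strain means, NZO and PWK were the only neighbours that differed by more than the larger of their SDs.

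By the fit, Cyp1b1 was higher in NOD than in NZO by 1.37 ± 0.44 (SE) on the log2 scale (adjusted p = 0.00844, edgeR) and than in B6 by 3.89 ± 0.29 (adjusted p = 1.00e-21). NZO was higher than each of the other 6 strains, from 1.48 ± 0.49 against PWK (adjusted p = 0.00975) to 2.53 ± 0.35 against B6 (adjusted p = 5.40e-09). B6 was also lower than AJ, PWK and WSB, by 0.90 to 1.04. The remaining strains were not called against each other.

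Tiparp, an ADP-ribosyltransferase that is induced by the AHR and modifies the receptor in a negative feedback, was abundant and variable in every strain except NZO. In AJ it ran from 10.91 through a median of 37.02 to 42.9 TPM (33.0 ± 10.4, SD, n = 14), and in WSB from 4.54 through 25.16 to 52.1 TPM (23.8 ± 11.04, SD, n = 16). In B6 it covered 1.64 to 33.25 TPM with a median of 13.475 (15.1 ± 10.5, SD, n = 18), and the 4 NZO libraries had 18.17, 18.17, 19.04 and 20.23 TPM. The strains overlapped, and no neighbours in the order of the means differed by more than the larger of their SDs. Tiparp was higher in AJ than in 129 by 1.86 ± 0.37 (SE) on the log2 scale (adjusted p = 2.00e-05, edgeR) and than in PWK by 1.89 ± 0.49 (adjusted p = 0.000817), and also than in B6, CAST and NOD. It was not called between AJ and WSB (0.27 ± 0.30, adjusted p = 0.482) or NZO (0.67 ± 0.50, adjusted p = 0.288). Without the 12 libraries that went against their labelled sex, which leaves 4 libraries of 129 and 8 of NOD, 5 of 28 pairs were called for Tiparp instead of 13. AJ was then still higher than B6, CAST and PWK, but was not called against 129 (1.07 ± 0.50, adjusted p = 0.0986) or NOD (0.70 ± 0.37, adjusted p = 0.101).

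Within strains, Tiparp moved with the keratins Krt8 and Krt18, which are 2 of the 8 genes on the list of ductal cell markers. With strain means removed, r with Tiparp over the 91 libraries was 0.87 for Krt8 and 0.69 for Krt18. For the other 6 markers it was between -0.12 (Cftr, the chloride channel of duct cells) and 0.21 (Krt7), and it was 0.11 for Sox9, the transcription factor of duct cells, and 0.07 for Spp1. These are given as a description, since the markers were singled out after their values were seen. The list also split between strains. Krt7, Krt8 and Krt19 were highest by the fit in AJ, the strain with the most Tiparp, whereas Sox9, Spp1, Muc1 and Cftr were all lowest there by the same fit. Krt18 departed from this split, since it was highest by the fit in NZO and lowest in WSB. Its means were 210 TPM in NZO, 169 TPM in AJ and 76.3 TPM in WSB. Krt8 had a mean of 521 TPM ± 207 (SD, n = 14) in AJ and of 133 TPM ± 37.9 (SD, n = 16) in WSB, and Spp1 of 13.3 TPM ± 8.51 in AJ and of 79.5 TPM ± 30.9 in WSB.

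The summed list was mostly keratins in every strain, by the medians. In AJ it ran from 414.36 to 1178 TPM and the 4 keratins from 403.62 to 1164 TPM, and in NZO, where the other markers were highest, the median was 525 TPM for the keratins and 233 TPM for the other 4, and all 8 markers were above 0 in every strain. Over the 91 libraries with strain means removed, the sum had r = 0.80 and rho = 0.81 with Tiparp, each with a permutation p at the smallest value that 100000 permutations within strains can give, 1e-05. It had r = 0.79 without the 2 libraries farthest from the median marker level, and r = 0.70 with the means of strain and library number range (described below) removed. For the 4 markers other than keratins, the sum had r = 0.05. With the whole list as a covariate, WSB had the highest fitted level of Tiparp, and AJ was lower than WSB by 1.63 ± 0.25 (adjusted p = 1.06e-07, edgeR), CAST by 1.25 ± 0.28 and NOD by 0.89 ± 0.26. With the 4 keratins alone as a covariate, AJ was lower than WSB by 1.97 ± 0.24 (adjusted p = 1.06e-10). With the other 4 markers as a covariate, AJ remained the strain with the highest fitted level and was not called against WSB (0.27 ± 0.50, adjusted p = 0.72), with 7 of 28 pairs called.

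Nqo1, a quinone reductase that is a target of both the AHR and NRF2, was highest in WSB and PWK, followed by CAST, and of the 7 members it had the smallest adjusted p-value for strain (5.90e-33, edgeR's quasi-likelihood test). In WSB it ran from 11.81 through a median of 27.2 to 41.46 TPM (26.2 ± 9.01, SD, n = 16), and the 5 PWK libraries had 10.23, 18.29, 23.83, 25.14 and 33.3 TPM (22.2 ± 8.56, SD). CAST followed with 5.6, 8.815 and 15.85 TPM as its lowest, median and highest values (9.11 ± 2.54, SD, n = 14). All 16 WSB libraries were above every library of 129, AJ, B6, NOD and NZO, and 14 of them above every CAST library. In the other 5 strains the means were between 4.16 TPM ± 1.63 (SD, n = 10) in NOD and 7.15 TPM ± 2.00 (SD, n = 10) in 129. PWK and CAST were the only neighbours in the order whose mean TPM differed by more than the larger SD, and in normalized counts CAST and B6, neighbours on that scale, did so too (136 against an SD of 93.8).

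On the log2 scale of the fit, Nqo1 was higher in WSB than in NOD by 2.75 ± 0.18 (SE, adjusted p = 1.08e-23, edgeR), than in AJ by 2.37 ± 0.16 (adjusted p = 8.54e-24) and than in CAST by 1.41 ± 0.15 (adjusted p = 1.57e-13). WSB and PWK differed by 0.44 ± 0.21 (adjusted p = 0.0716), which was not called. PWK was higher than CAST by 0.97 ± 0.20 (adjusted p = 3.83e-05), and CAST was higher than 129, AJ, B6, NOD and NZO, by 0.72 to 1.33. NOD was lower than each strain except NZO (-0.54 ± 0.24, adjusted p = 0.0598). The 3 strains with the highest levels are the wild-derived ones.

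The highest 3 values of Ahrr and of Cyp1b1 in NOD came from the same 3 libraries, which were also those with the most immune cell markers, and 2 of the 3 had the highest values of Ahr. Summed TPM of 17 macrophage, T cell and B cell markers ran from 58.17 through a median of 669 to 3882 in NOD, and from 27.83 to 232.27 over the libraries of the other 7 strains, with all 17 markers above 0 in every strain. The 3 NOD libraries with the most markers, 99, 100 and 97, had 2292, 2294 and 3882 TPM of them. In the same order they had 4.69, 7.4 and 8.06 TPM of Ahr, 0.58, 1.24 and 0.93 TPM of Ahrr, and 8.92, 6.71 and 9.7 TPM of Cyp1b1. The 3 NOD libraries with the fewest markers, 94, 96 and 95, had 58.17, 106.95 and 151.97 TPM of them. They had 1.5, 2.14 and 2.21 TPM of Ahr, 0.05, 0.21 and 0.07 TPM of Ahrr, and 0.33, 0.69 and 0.99 TPM of Cyp1b1, which are the lowest 3 NOD values of Ahr and Cyp1b1 in TPM. The libraries low in immune markers were also high in acinar markers, with 190378, 111969 and 235688 TPM in the same order, against 31873, 36893 and 35735 TPM in libraries 99, 100 and 97, and acinar transcripts take up part of the fixed total of TPM. In normalized counts the 2 sets were closer in Ahr, with 278, 300.1 and 408 in libraries 94, 96 and 95 and 428, 684 and 632 in libraries 99, 100 and 97, and the other 4 libraries, 91, 92, 93 and 98, were at 395, 552, 521 and 453. Libraries 92, 93 and 98 thus had more Ahr than library 99 with fewer immune markers (874.83, 295.36 and 1004 TPM). Cyp1b1 remained lowest in the same 3 libraries, at 56.4, 100.03 and 181 normalized counts against 779, 591 and 732. Libraries 93, 94, 95 and 96, which had the fewest immune markers in NOD, are all labelled male. Of the other NOD libraries only 97 is, so that labelled sex and marker level were not separate in this strain. Libraries 100 and 97 are among those whose Xist and Y-linked counts went against the labelled sex. Stromal cell markers were also high in NOD, at 55.49 to 437.1 TPM, and in NZO, at 156.49 to 320.71 TPM, against 21.47 to 172.35 TPM in the other 6 strains.

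**Figure D2:**
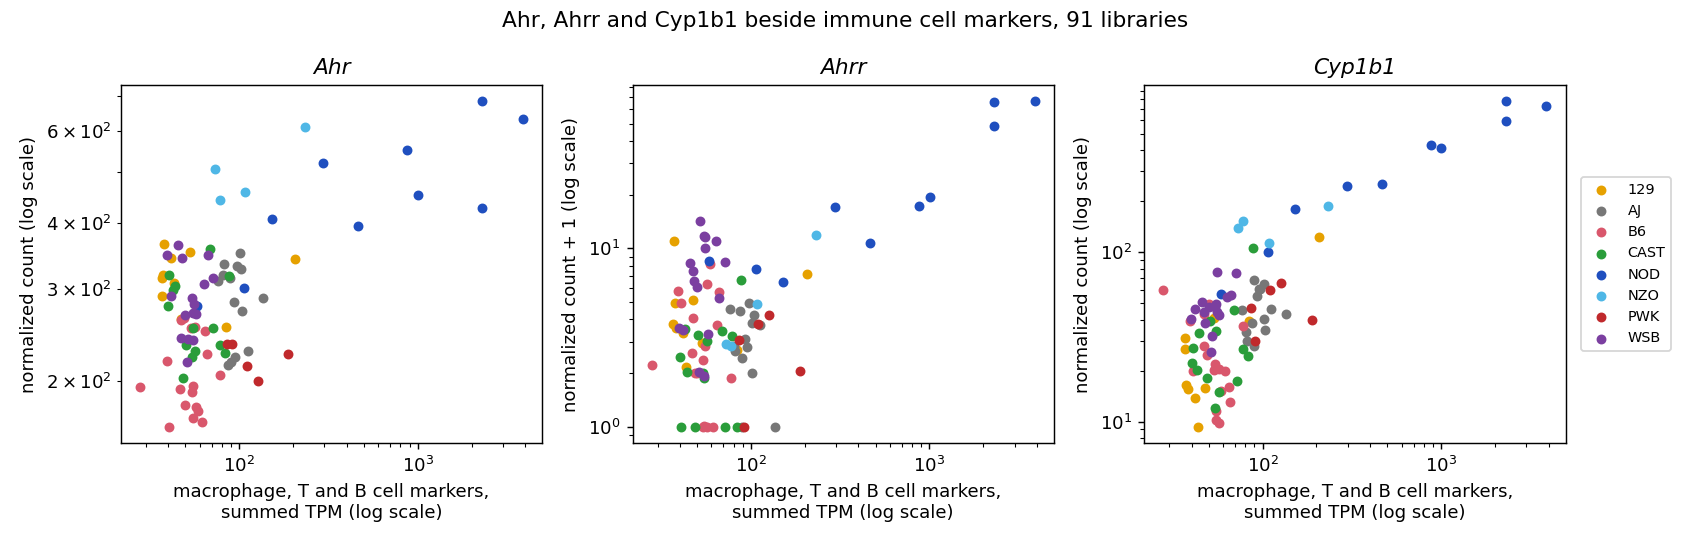
Normalized counts of Ahr, Ahrr and Cyp1b1 (vertical axes, logarithmic, with 1 added for Ahrr) against the summed TPM of macrophage, T cell and B cell markers (horizontal axes, logarithmic) in the 91 libraries, coloured by strain. The NOD libraries run from 58.17 to 3882 TPM of markers and rise with them in Ahrr and Cyp1b1, and the 4 NZO libraries, at 72.97 to 232.27 TPM, lie above every library of the strains other than NOD in Ahr, and 3 of the 4 do so in Cyp1b1.

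With strain means removed, Cyp1b1 correlated over the 91 libraries with B cell markers (r = 0.70, permutation p = 1e-05, the smallest possible, rho = 0.48, permutation p = 3.00e-05) and Ahrr with macrophage markers (r = 0.70, permutation p = 7.00e-05, rho = 0.25, permutation p = 0.0312). Without the 2 libraries farthest from the median of the markers, r was 0.62 and 0.61. Of 77 such relations between the 7 members and 11 marker lists, 16 passed an adjusted p under 0.05 by r, and 9 of these also passed by rho. An r of 0.31 or more in size, the smallest among the 16, was reached in 17 of the 77 relations (22.1%), beside 25.8% of the relations of all tested genes with the same lists. By both measures, Cyp1b1 passed with stromal, T cell and B cell markers, Ahrr with T cell markers, Ahr with stromal markers and inversely with ductal markers, Tiparp with ductal markers, Nqo1 inversely with ductal markers (r = -0.31) and Arnt inversely with alpha cell markers (r = -0.31). By r alone, Cyp1b1, Ahrr and Ahr passed with macrophage markers, for which rho was 0.27, 0.25 and 0.10, Ahrr with endothelial, stromal and B cell markers, and Ahr with T cell markers. Cyp1a1 passed with none. The sum of the ductal list was mostly keratins, as given above. Its relations with Ahr and Nqo1 were not tested for keratins and other markers apart, nor with number range means removed.

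With the immune markers as a covariate, NOD was no longer the highest strain for Cyp1b1 or Ahrr. Cyp1b1 was then highest in NZO, and NOD differed from NZO by -0.27 ± 0.36 (adjusted p = 0.629, edgeR). NOD was still higher than 129, AJ, B6, CAST and PWK in that fit, by 1.14 to 1.56, and was not called against WSB (0.73 ± 0.33, adjusted p = 0.0741). Ahrr was then highest in WSB, with a difference of -0.37 ± 0.55 between NOD and WSB (adjusted p = 0.652), and NOD was higher only than AJ, CAST and PWK. With stromal markers as the covariate instead, Cyp1b1 in NOD exceeded that in every other strain, by 1.46 to 2.48, and Ahrr was so except against 129 (1.14 ± 0.54, adjusted p = 0.0674). Of the contrasts of NZO with the 6 strains other than NOD, those in Cyp1b1 were then called only against AJ (0.91 ± 0.36, adjusted p = 0.0391) and WSB (adjusted p = 0.0138), and 9 of 28 pairs were called for Cyp1b1 instead of 16. NZO was still higher in Ahr than AJ, B6, CAST, PWK and WSB, by 0.43 to 0.86, and was not called against 129 (0.26 ± 0.16, adjusted p = 0.192). Of the 10 NOD libraries, 7 had more markers than any library of another strain, so that at those levels strain and markers cannot be told apart.

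Within 4 strains, levels also differed between ranges of the library numbers. The libraries of AJ, B6, CAST and WSB carry numbers 1 to 32 and 34 to 65, and those of the other 4 strains 66 to 100. The range is thus the same as the set of strains for 129, NOD, NZO and PWK, and a difference between a strain of the first set and one of the second cannot be told apart from a difference between ranges. This holds for the contrasts of NZO, NOD and 129, which had the 3 highest means of Ahr, with AJ, B6, CAST and WSB. Samples were collected in 4 waves of animals, and the sources used here do not map libraries to waves, so that what the number ranges stand for is not known. For Tiparp, the median of the lower range was above that of the higher range in 4 of 4 strains, at 39.2 against 23.955 TPM in AJ, 23.8 against 6.27 in B6, 16.7 against 9.4 in CAST and 25.87 against 22.05 in WSB. The separation was widest in B6, where 1 library of the higher range reached into the lower. For Nqo1 the difference was clearest in WSB, with medians of 33.55 and 20.05 TPM. Cyp1a1 in AJ had a median of 12.5 expected counts in the lower range and 1 in the higher, whereas in WSB the medians were 0.32 and 0.34 TPM. Ahr and Cyp1b1 were lower in the lower range in all 4 strains, in Ahr at 2.095 against 2.86 TPM in AJ, 1.42 against 1.975 in B6, 1.71 against 1.86 in CAST and 1.78 against 2.37 in WSB.

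**Figure D3:**
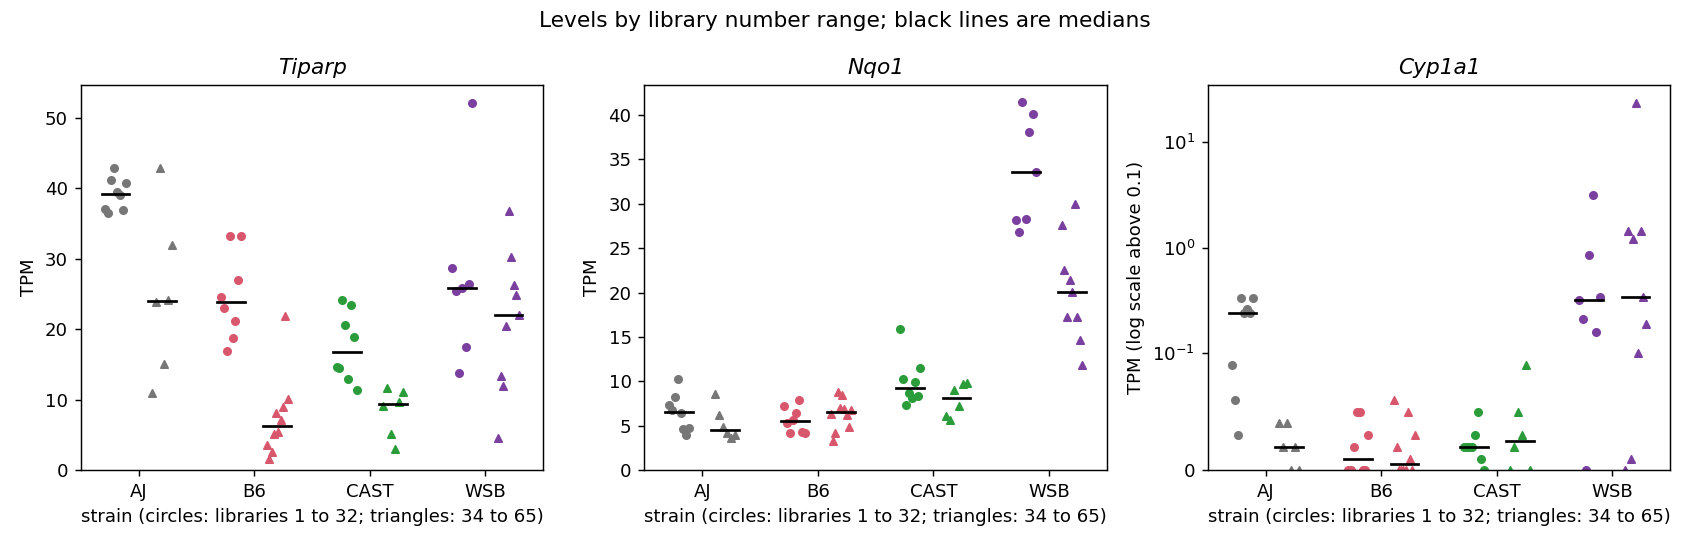
TPM of Tiparp, Nqo1 and Cyp1a1 (vertical axes, logarithmic above 0.1 TPM for Cyp1a1) in the libraries of AJ, B6, CAST and WSB (horizontal axes), with circles for library numbers 1 to 32, triangles for 34 to 65, and lines at the medians. The Tiparp median is lower in the higher range in each strain, and the WSB median is the highest for Nqo1 and Cyp1a1 in both ranges.

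By TPM, the strain with the highest median was the same in both ranges for Ahr, Cyp1a1, Tiparp and Nqo1 and another one for Arnt and Ahrr, and in Cyp1b1 AJ had the highest median in the higher range and shared it with WSB in the lower (0.33 TPM). By expected counts, WSB had the highest median of Ahrr in both ranges, at 4.5 and 7. That of Tiparp was highest by counts in AJ in the lower range and in WSB in the higher, at 2240 against 2132 in AJ. Below the first place, the order of the strains differed between the ranges in Ahr, Cyp1a1, Tiparp and Nqo1. AJ had the highest median Tiparp in the lower range (39.2 TPM) and in the higher (23.955 TPM), whereas B6 was above CAST in the lower and below it in the higher. WSB had the highest median of Nqo1 and of Cyp1a1 in both, whereas AJ and B6 changed places in Nqo1, and AJ and CAST in Cyp1a1. In a fit of these 4 strains alone, the 6 filtered members had 22 of 36 pair contrasts called, beside 52.3% of all tests of genes and pairs, and the same 22 were called in the same direction with the range as a covariate, beside 55.5%. For Cyp1a1 the same 4 of 6 were called in both, beside 43.6% and 46% in the unfiltered fits.

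Between the sexes, 1 of the 7 members was called, beside 4.01% of all genes (313 higher in males and 296 in females). Arnt was higher in males by 0.11 ± 0.02 (SE) on the log2 scale (adjusted p = 0.00216, edgeR). In B6 the males had a median of 19.54 TPM, from 14.1 to 20.94, and the females a median of 13.06 TPM, from 6.5 to 17.28. In CAST the medians were 15.2 TPM in males and 12.08 in females. The medians went the other way in NOD, at 9.77 TPM in males and 15.35 in females, in WSB, at 12.61 and 13.82 TPM, and in 129, at 17.4 and 18.34 TPM, so that the direction in TPM was not shared, and the sexes overlapped in every strain with more than 1 library of each. NOD, WSB and 129 hold the 12 libraries that went against their labels, and these medians include them. In B6, CAST, NOD and WSB the sex with the lower median of Arnt had the higher median of acinar markers, and in AJ and 129 it did not. Their median was 107167 TPM in the B6 females and 12801 TPM in the B6 males, 122966 and 81561 TPM in CAST, 36893 and 190378 TPM in NOD, and 30193 and 106985 TPM in WSB. In AJ it was 4429 and 6640 TPM, and in 129 it was 32519 and 11492 TPM. In normalized counts the B6 medians were 1365 and 1652, and the fitted difference was 0.24 ± 0.05 in B6 (SE), 0.17 ± 0.06 in CAST, 0.06 to 0.12 in AJ, NOD and WSB and -0.01 ± 0.07 in 129. With acinar markers as a covariate, Arnt was higher in males by 0.10 over all strains (adjusted p = 0.00296). Without the 12 libraries that went against their labels it was again the 1 member called, by 0.13 (adjusted p = 0.000166), beside 9.79% of all genes. It was not called over 129, NOD, NZO and PWK alone (0.03, adjusted p = 0.888) or when the libraries of each sample were summed (0.07, adjusted p = 0.739), fits in which 0 of the 15204 genes were called for sex by edgeR.

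Nqo1 was lower in males by 0.24 ± 0.09 (edgeR, adjusted p = 0.125), which was not called, and by 0.26 (adjusted p = 0.0534) without the 12 libraries. Its females had a median of 7.33 TPM and its males one of 4.18 TPM in AJ, and 8.08 and 6.16 TPM in 129, whereas WSB had 26.81 and 29.97 TPM. These medians follow the labels, against which 6 of the 10 libraries of 129 and 4 of the 16 of WSB went. The other 5 members had sex differences from -0.42 ± 0.46 for Cyp1a1 to 0.20 ± 0.18 for Tiparp, with adjusted p-values of 0.417 or more (without WSB library 48 the difference of Cyp1a1 turned to 0.44), and of 0.127 or more without the 12 libraries. The interaction of strain and sex was tested in 82 libraries, those of the 6 strains other than NZO and PWK, which had 5 or more of either sex. It was called for 0 of the 7 members by edgeR, beside 5.90% of all genes, and 1 member, Arnt, had an unadjusted p under 0.05 (adjusted p = 0.26). Without the 12 libraries, which leaves 2 of each sex in 129, it was called for 0 of the 7 members, beside 17.6% of all genes. The 1 member with an unadjusted p under 0.05 by edgeR was then Cyp1b1 (adjusted p = 0.0711), and Arnt had an adjusted p of 0.574.

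Whether the members varied together from library to library was asked on log2(CPM + 0.5) with the strain means removed, over the 21 pairs of members. Of these, 7 passed an adjusted permutation p under 0.05, 4 of them positive and 3 negative, with a median r over the 21 of -0.08. An r of 0.24 or more in size, as these 7 of 21 pairs had (33.3%), was found in 32% of all pairs of tested genes. By rho, 5 of the 7 passed, the exceptions being Ahr with Ahrr (rho adjusted permutation p = 0.0895) and Arnt with Cyp1b1 (0.0645). The positive pairs joined Ahr to Ahrr and to Cyp1b1, and Ahrr to Cyp1b1 and to Cyp1a1, whereas Ahr and Cyp1a1 had r = -0.05. For Ahrr and Cyp1b1, r was 0.55 (permutation p = 0.00015, adjusted p = 0.00157) and rho 0.34 (permutation p = 0.00177), for Ahr and Cyp1b1 r was 0.44 and rho 0.31, for Ahr and Ahrr r was 0.40 and rho 0.23, and for Ahrr and Cyp1a1 r was 0.24 and rho 0.31. Within NOD alone, r was 0.75 for Ahr and Ahrr, 0.83 for Ahr and Cyp1b1 and 0.84 for Ahrr and Cyp1b1.

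The negative pairs were Ahr with Tiparp (r = -0.41, permutation p = 0.0001, adjusted p = 0.00157, rho = -0.41, permutation p = 9.00e-05), Cyp1b1 with Tiparp (r = -0.32) and Arnt with Cyp1b1 (r = -0.25). Without the 2 libraries farthest from the median of the first gene, r was 0.48 for Ahrr and Cyp1b1 and -0.39 for Ahr and Tiparp. Without NOD, 2 pairs passed, Ahr with Tiparp and, in addition, Ahr with Arnt (r = 0.38), so the positive pairs among Ahr, Ahrr and Cyp1b1 did not pass without the NOD libraries. When the means of each strain and library number range were removed, 4 pairs passed. Ahr and Tiparp then had r = -0.15 (permutation p = 0.253, adjusted p = 0.4) and did not pass, Ahrr and Cyp1b1 had r = 0.55 (adjusted permutation p = 0.00252), Arnt and Cyp1b1 r = -0.40, and Tiparp and Nqo1 passed with r = -0.37. The relations also depended on the scale. On log2(TPM + 0.1), which is set by the same total in each library, Ahr and Arnt had r = 0.77 and Ahr and Tiparp r = -0.05.

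**Figure D4:**
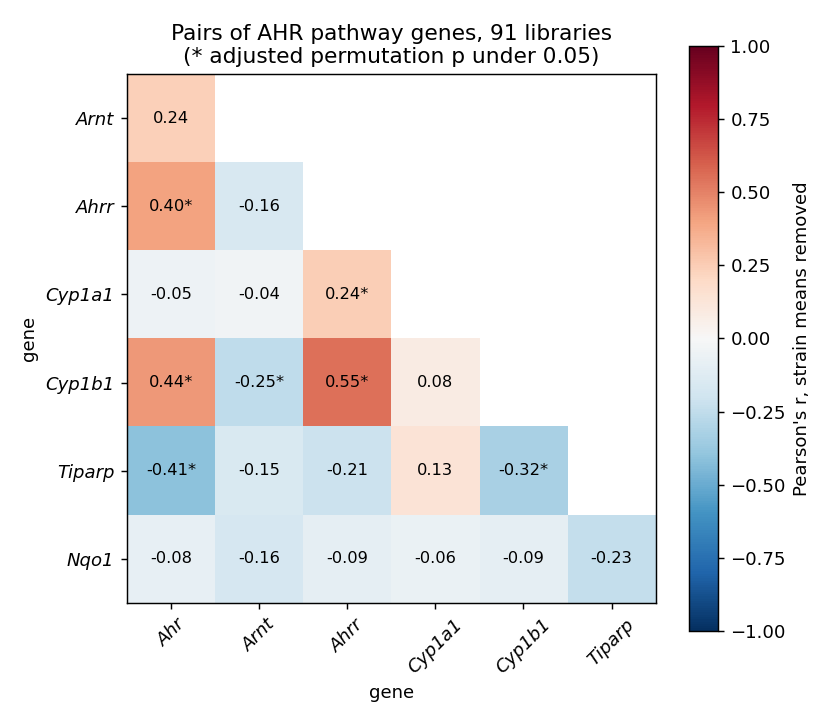
Pearson's r between each pair of the 7 genes (both axes) on log2(CPM + 0.5) over 91 libraries with strain means removed, coloured from -1 in blue to 1 in red. Stars mark the 7 pairs with an adjusted permutation p under 0.05, of which Ahrr with Cyp1b1 is highest at 0.55 and Ahr with Tiparp lowest at -0.41.

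For each member, the tested genes most like it within strains were those with the highest r over the 91 libraries with strain means removed, given without a test. Tiparp had the closest companions, with r = 0.95 for Maff, Siah2 and Rassf1, and over the 8 strain means Mafk (0.99) and Fosl2 (0.98). Cyp1b1 was most like Igfbp4 (0.83), C1ra (0.82) and Vim (0.81), and over strain means like Osm (1.00) and Timp1 (0.99). Ahrr was most like Pml, Chil1 and Cd244 (0.77 to 0.76), and Ahr like Stk38 (0.71) and Chsy1 (0.69). Arnt was most like Srrm2 (0.66), Frmd5 and Ankrd10 (both 0.65), and Nqo1 like Igfals (0.70), Fam210b (0.69) and Ggact (0.64). Cyp1a1 had no close companion, since its highest r was 0.38 with Chmp2a. The members were absent from each other's lists.

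Other genes of the pathway were read from 6 lists. The chaperones and degradation factors of the receptor varied little, with all 6 of 6 called between strains and a median range of 0.45 on the log2 scale, beside 97.4% called and a median range of 0.87 over all genes. Hsp90aa1, which encodes an HSP90 chaperone, had strain means between 165 TPM in CAST and 250.2 TPM in B6. Of 8 further genes listed for the AHR battery, the set of drug-metabolizing genes that the receptor induces, 3 were tested, and all 3 were called. One of the 3 was Nfe2l2, which encodes the transcription factor NRF2 and not a drug-metabolizing enzyme. Ugt1a6a, a glucuronosyltransferase, was at 3.81 TPM ± 1.43 (SD, n = 5) in PWK, at 3.25 TPM ± 1.24 (SD, n = 18) in B6 and at 2.77 TPM ± 0.913 (SD, n = 16) in WSB, and at 0.835 TPM or less in the other 5 strains. Genes of the Ugt1a cluster share exons, so that their division is uncertain. Cyp1a2, the sister enzyme of Cyp1a1 in the liver, was non-zero in 1.10% of the libraries and was not tested.

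Among 8 genes that make or break down tryptophan-derived ligands, 5 were tested and all 5 were called, with a median range of 5.78. Il4i1, an amino acid oxidase of immune cells that yields AHR ligands, was at 15.9 TPM ± 20.8 (SD, n = 10) in NOD and at 0.916 TPM or less elsewhere, and Kmo, an enzyme of the kynurenine pathway, at 7.09 TPM ± 8.27 in NOD and at 0.634 TPM or less elsewhere. Both SDs exceeded the means. NOD is also the strain with the highest immune markers, given above. Tph1, which makes serotonin from tryptophan, was highest in WSB at 2.42 TPM ± 1.86 (SD, n = 16), and its strain means were among the 2 most like those of Cyp1a1 (r = 0.96 over 8 strains).

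Of 12 names listed for partners and relatives of ARNT, 10 were tested and all 10 were called, with a median range of 1.95. Npas4, an activity-dependent partner of ARNT, was lowest in NZO at 7.45 TPM ± 4.31 (SD, n = 4) and between 34.6 and 76.6 TPM in the other strains. All 12 HIF targets and all 12 NRF2 targets were tested and called, with median ranges of 1.16 and 1.11. Ldha, the lactate dehydrogenase induced in hypoxia, was at 76.3 TPM ± 71.7 (SD, n = 10) in NOD and at most 17.8 TPM elsewhere. The HIF targets did not share this order. By the fit, Slc2a1, Ldha and Adm were highest in NOD, whereas Vegfa, Bnip3, Egln1, Ankrd37 and P4ha1 were lowest there. The immune markers, given above, were also highest in NOD. Among the NRF2 targets, Slc7a11, the cystine transporter, was highest in AJ at 2.74 TPM ± 0.563 (SD, n = 14) and at 0.326 TPM ± 0.107 (SD, n = 16) in WSB, and Osgin1 was highest in NZO at 33.3 TPM, so neither had its highest level in WSB or PWK, where Nqo1 was highest.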

How the data were processed

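The authors quantified the RNA-seq reads with RSEM against GENCODE vM18 (mm10 per the labels), and deposited per library a table of 2 measures for each gene: expected counts, which carry no normalization, and TPM values, which are scaled by length and sum to 1 fixed total. The RSEM version and read filters are not given in the sources used here. Libraries of waves 1 to 3 were made at the Jackson Laboratory and those of wave 4 at the New York Genome Center. Strain and sex come from the labels of the 16 samples, and each of their 91 files was taken as 1 library.

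Genes were matched by identifier to GENCODE M21 for symbols and coordinates. After the filters that the study describes, the analysis kept protein-coding genes of chromosomes 1 to 19 and X, dropped the lowest 10% by variance, and took a gene only where 85% or more of the libraries had a count above 0, which left 15204 genes. The sources used here do not give the scale of the variance, taken here on expected counts, and this set is larger than the study's. Expected counts were rounded and tested with edgeR 4.0.16 in R 4.3.3 (upper-quartile normalization, quasi-likelihood test, strain and sex as terms, Benjamini-Hochberg adjustment over all genes, threshold 0.05). To obtain normalized counts, the counts were divided by each library's effective size over the mean effective size. Correlations used log2(CPM + 0.5) and 100000 permutations within strains, with numpy 2.4.6, pandas 2.3.3 and scipy 1.17.1 in Python 3.11.15, and figures were drawn with matplotlib 3.10.9. Both tests were first tried on simulated data.

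The alternatives were TMM and median-ratio normalization, limma-voom (limma 3.58.1), DESeq2 1.42.0, the gene sets of filterByExpr (20934 genes) or of any non-zero count (19718 genes), a model without sex, covariates of cell type markers, sums of the libraries of each sample, subsets of strains and libraries, and other scales. The fits without WSB library 48 or NOD, those with the keratins or the other ductal markers as covariates, the interaction without libraries that went against their labelled sex, and the removal of number range means were chosen after seeing the data. The members, the gene lists and the tests were chosen with earlier results of these data known. The genes named besides the members are, of each list, up to 3 of those called with the widest range, and the genes most like each member (up to 3 within strains, 2 over strain means), and some of these are not reported here. Cyp1a2, the single ductal markers and the HIF targets besides Ldha were named after their values were seen. Of the 7 members, 6 were in the table of RefSeq promoters.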

Additional observations from a re-analysis of the deposited data

Results flagged for a closer look

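Of 28 groups of 4 to 10 libraries that were examined for a library far from the others (7 genes in 4 strains), 2 held one. Chance alone was taken to give about 1 in 20, a rate that was not computed from these data. Both were in 129. The highest 129 library of Ahrr, labelled female with the number 78, had 0.23 TPM, and the next had 0.11 TPM. Its 0.23 TPM rests on 2.07 expected counts. The highest 129 library of Cyp1b1, labelled male with the number 85, had 1.11 TPM from 149 expected counts, and the next had 0.41 TPM. The same library had the highest summed marker levels of the 129 libraries for macrophages (128 TPM), T cells (36.8 TPM) and B cells (41.3 TPM), and their part in its Cyp1b1 level was not tested.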

How the results depend on the processing

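The strain effect was called for 7 of 7 members in the fits without each NZO or PWK library in turn, as were 97.2% to 97.3% of all genes, with 104 to 112 of 196 pair contrasts called (109 with all libraries) and 1 member called for sex. Over the alternatives of normalization, filter, tool, covariate and subset, Arnt lost its strain call when the libraries of each sample were summed (range 0.32, adjusted p = 0.0554), with 3 of its 28 pairs called against 17. Without the libraries that went against their labelled sex, 5 pairs of Tiparp were called against 13. With the ductal list or its keratins as a covariate, Cyp1b1 was not higher in NOD than in each of the other 7 strains, and with the other ductal markers Cyp1a1 was not so in WSB. The sex effect was called for 0 members by edgeR with summed libraries and over 129, NOD, NZO and PWK alone, with 1 member at an unadjusted p under 0.05 in each, and also for 0 of all 15204 genes, so these fits say nothing about the members. Pairs of members past the threshold were 2 without NOD and 4 with number range means removed, against 7. The male minus female difference of Ahr (-0.02) turned to 0.0117 with summed libraries, 0.00292 with the ductal covariate, 0.00353 over AJ, B6, CAST and WSB alone and 0.00551 without NOD. That of Cyp1a1 (-0.42) turned to 0.00674 with the acinar covariate, 0.441 without WSB library 48 and 0.22 by limma-voom. On log2(TPM + 0.1), r turned positive for Ahr and Nqo1 (0.338), Arnt and Ahrr (0.33), Arnt and Cyp1b1 (0.331) and Arnt and Nqo1 (0.409). The causes were not tested, except that fewer samples entered the summed and subset fits. Depth limits Cyp1a1 and Ahrr, whose counts were at or under 3 in most libraries. No paired analysis was possible because the labels give no replicate numbers that the groups share.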
